A study of Mus musculus with 81 samples.

Results

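TCRBV01 to TCRBV05 are the V segments at the upstream end of the mouse T-cell receptor β (TCRβ) locus, each a family with a single member here (TCRBV01-01, TCRBV02-01, TCRBV03-01, TCRBV04-01 and TCRBV05-01). They were taken as every rearrangement whose deposited V assignment begins with those names, and made up 5 of the 35 V segments named in 81 libraries. Of 581514 listed rearrangements, 173893 used one of the 5 segments. These comprised 113967 scored In (in frame with no stop codon), 56391 scored Out (out of frame) and 3535 scored Stop (in frame with a stop codon). A template is an estimated original DNA molecule carrying a rearrangement. The OT-1 CDR3, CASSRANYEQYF, and the CDR3 carried by the tumor line, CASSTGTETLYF, were set aside, and the remaining In templates are called host templates below. The 5 segments held 178706 of 613408 host templates (29.1%).

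A TCRβ chain is built in the thymus by joining a V, a D and a J segment, with bases trimmed from the segment ends and others added at the joins. The joined stretch, the CDR3, runs from the end of V to the start of J and makes much of the contact with peptide and MHC. A rearrangement that is out of frame makes no β chain, and it can still be carried by a T cell whose other chromosome encodes a working chain. The J segments lie in an upstream cluster, TCRBJ01, and a downstream cluster, TCRBJ02. The 5 segments are the mouse genes Trbv1 to Trbv5, of which Trbv2 to Trbv5 neighbour one another in RefSeq's annotation of GRCm38.p6, while other genes lie between Trbv1 and Trbv2.

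All mice were of the Pep Boy strain, a C57BL/6 background carrying CD45.1, and all had received OT-1 cells, transgenic CD8+ T cells that recognise an ovalbumin (OVA) peptide through a single receptor. In the treatment experiment, mice bearing EG7.OVA tumors, which are EL4 lymphoma cells expressing OVA, were given 1e6 OT-1 cells. They then received mouse red blood cells on days 0 and 3. These were 1e9 mRBC-CTRL, which were not modified, in 5 mice, or engineered mRBC-OVA-4-1BBL-IL-12, which display the OVA peptide on MHC with 4-1BBL and IL-12, at 1e9 in 5 mice and at 2.5e8 in 5 mice. Blood was taken on day 0, minutes after OT-1 transfer, and blood and tumor on day 7. In the rechallenge experiment, 7 mice cured of EG7.OVA after the 2.5e8 dose of the same red cells, and OT-1 cells, were bled on days 65 and 73, around a second EG7.OVA injection, and again before and after an injection of EL4, the parent line without OVA. In that experiment 5 age-matched naive mice were given 5e5 OT-1 cells on day 65 before their first EG7.OVA injection and bled on days 65 and 73. The cured mice are by definition the animals that survived treatment, and the naive mice carried no tumor at the first draw. The day 7 blood of control mouse 1 and the day 0 blood of 1e9-dose mouse 1 were not analysed here.

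The 66 blood and 15 tumor libraries held 482 to 23605 host templates each. Day 7 libraries of the 1e9 arm included the shallowest, and the OT-1 CDR3 took 48.1% to 79.5% of In templates in their blood and 65.9% to 85.8% in their tumors. In the mRBC-CTRL tumors the lymphoma CDR3 took 50.0% to 79.4% of In templates. Shares of host templates are given throughout, so a segment can fall in share because other clones grew. DNA was sequenced rather than RNA, so a share counts cells and not transcripts.

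The V ends are shown because they are where the 5 segments enter the CDR3 and because trimming is counted from them. Each is the last stretch of V inside the CDR3 as untrimmed rearrangements carry it (94.4% to 99.0% of untrimmed rearrangements of each segment), read 5′ to 3′ from the cysteine codon, with the fifth codon in capitals.
TCRBV01-01: tgcacctgcagtGCAga
TCRBV02-01: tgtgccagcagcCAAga
TCRBV03-01: tgtgccagcagcTTAgc
TCRBV04-01: tgtgccagcagcTAAga
TCRBV05-01: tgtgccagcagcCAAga

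TCRBV01-01 differs from the others in its first codons, so its CDR3s open with CTC and the CDR3s of the others with CAS. TCRBV02-01 and TCRBV05-01 have the same V end. The fifth codon of TCRBV04-01 is TAA, a stop codon.

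For each segment, the In rearrangement found in the blood or tumor of the most mice is given with the whole sequenced stretch of 87 bases, to show how V, CDR3 and J meet, with the CDR3 in capitals up to the point where the read ends.
TCRBV01-01: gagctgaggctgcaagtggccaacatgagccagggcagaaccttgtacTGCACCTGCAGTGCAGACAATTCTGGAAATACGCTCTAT
TCRBV02-01: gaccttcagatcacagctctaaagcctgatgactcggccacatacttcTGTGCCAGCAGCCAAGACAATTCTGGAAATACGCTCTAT
TCRBV03-01: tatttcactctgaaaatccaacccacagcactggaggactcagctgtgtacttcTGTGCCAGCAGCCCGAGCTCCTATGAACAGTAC
TCRBV04-01: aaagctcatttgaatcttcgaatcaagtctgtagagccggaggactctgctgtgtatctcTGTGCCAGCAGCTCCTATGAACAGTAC
TCRBV05-01: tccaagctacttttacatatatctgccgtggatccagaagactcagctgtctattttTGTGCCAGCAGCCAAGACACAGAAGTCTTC

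They were present in 11, 11, 17, 15 and 12 of the 27 mice, in that order. Those of TCRBV01-01 and TCRBV02-01 used TCRBJ01-03, kept the V end whole and had 1 inserted base. Those of TCRBV04-01 and TCRBV05-01 had no inserted base. The TCRBV03-01 rearrangement, with 3 inserted bases and 170 templates in 30 libraries, was the one carried by the most mice among the 5.

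In blood the 5 segments were used at steady and unequal levels. Over 27 mice, TCRBV03-01 took 7.83% ± 0.43 (SD) of distinct In rearrangements and ranked 2 among all V segments, behind TCRBV13-02. TCRBV05-01 took 6.39% ± 0.33 and ranked 4. TCRBV02-01 took 5.87% ± 0.40 and ranked 6. TCRBV01-01 took 5.68% ± 0.41 and ranked 8. TCRBV04-01 took 4.48% ± 0.35 and ranked 12. The gaps between TCRBV03-01 and TCRBV19-01 (7.56%), and between TCRBV02-01, TCRBV31-01 (5.85%) and TCRBV01-01, were smaller than the SD between mice, whereas TCRBV04-01 lay below the other 4 members by more than that SD. By templates the order in blood was close to this, with 7.61% for TCRBV03-01, 6.24% for TCRBV02-01 and TCRBV05-01, 5.54% for TCRBV01-01 and 4.56% for TCRBV04-01.

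**Figure D1:**
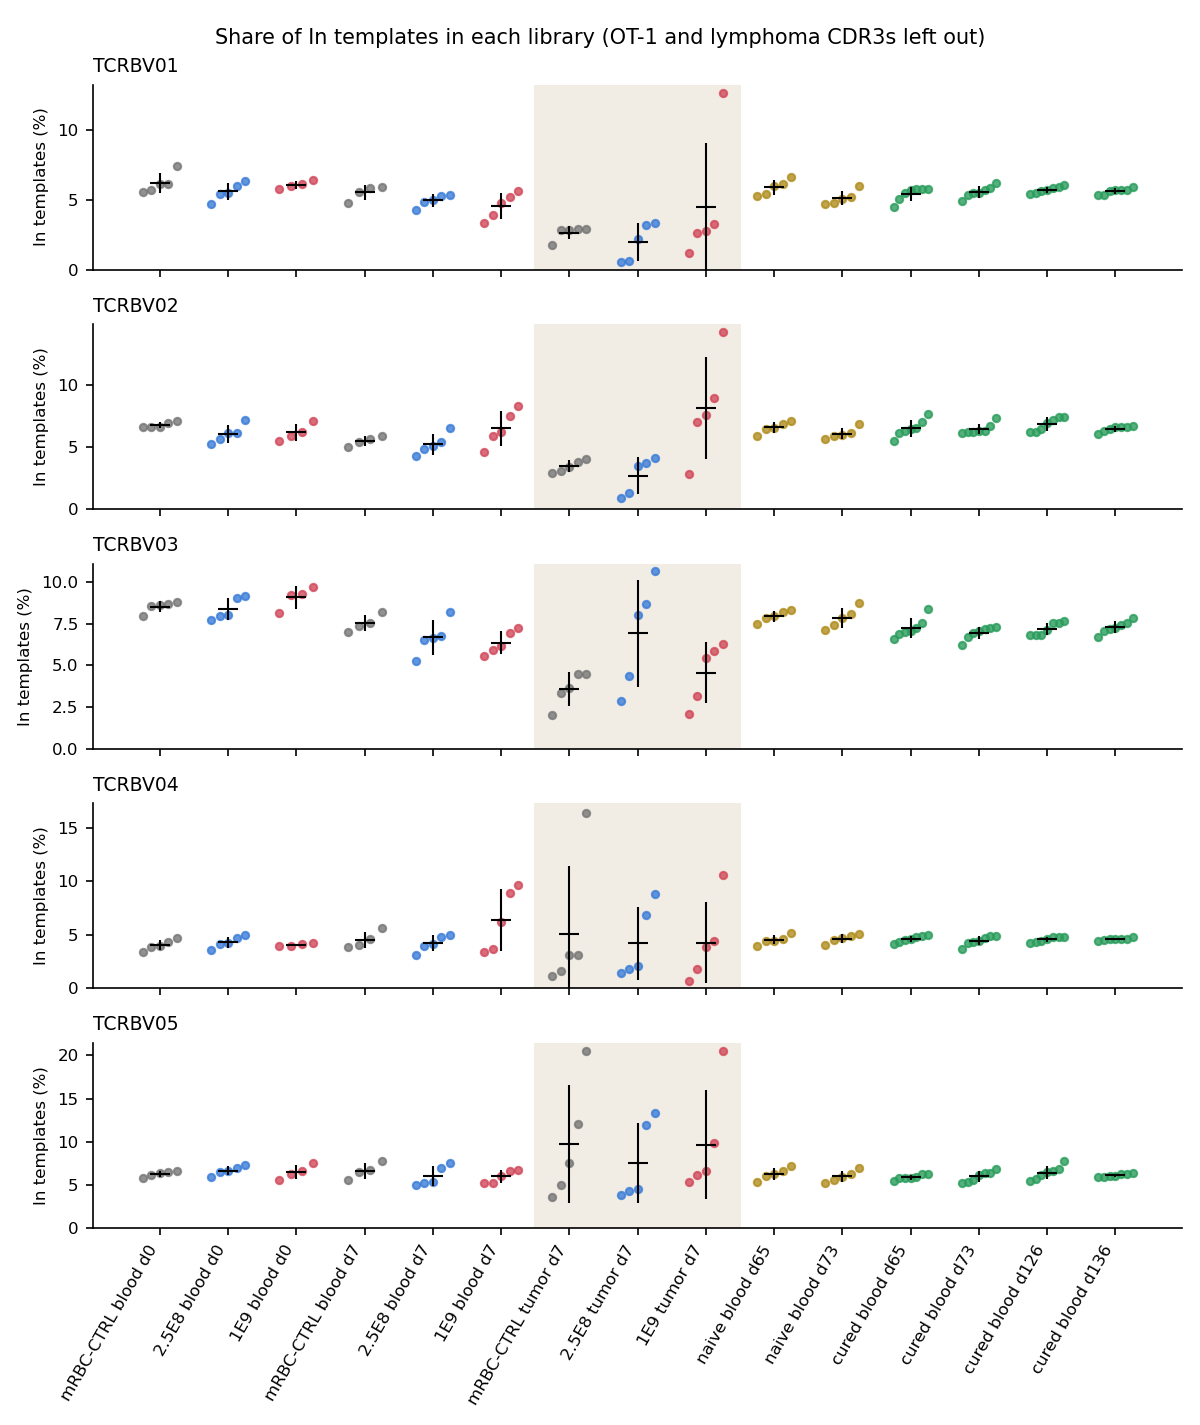
Share of host In templates (percent, y axis) taken by each segment in every library, grouped by arm, tissue and day along the x axis, with each group's points spread in order of value and the mean and SD in black (n = 4 to 7 libraries). Blood groups lie close together, and the shaded tumor groups spread from 0.579% to 20.6%.

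The segment most alike to each member was taken as the one with the highest Spearman correlation of shares over the day 0 or day 65 blood of 26 mice. This gave TCRBV24-01 for TCRBV01-01 (rho = 0.40), TCRBV27-01 for TCRBV02-01 (0.31), TCRBV15-01 for TCRBV03-01 (0.43), TCRBV29-01 for TCRBV04-01 (0.45) and TCRBV03-01 for TCRBV05-01 (0.32). These are descriptions only, since shares within a library sum to a whole and each is the highest of 25 correlations. TCRBV27-01 took a mean of only 0.02% of distinct In rearrangements in blood, so its ranks rest on very few rearrangements.

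The first comparison set In against Out rearrangements of the same mice, which asks whether a segment is used at the same rate in joins that make a β chain and joins that do not. TCRBV01-01, TCRBV02-01 and TCRBV03-01 were higher among In rearrangements, TCRBV04-01 was lower, and TCRBV05-01 was level. TCRBV04-01 took 6.62% to 7.72% of Out rearrangements (median 7.15%) and 3.65% to 4.91% of In rearrangements (median 4.47%). In was lower in 27 of 27 mice. The log2 difference was -0.68 ± 0.02 (SE, adjusted p = 2.03e-44, edgeR). TCRBV03-01 moved the other way, from 5.69% ± 0.49 of Out to 7.88% ± 0.44 of In rearrangements, higher in 27 of 27 mice (log2 difference 0.42 ± 0.02, adjusted p = 1.10e-27). TCRBV02-01 was at 4.80% ± 0.41 of Out and 5.87% ± 0.38 of In (0.31 ± 0.02, adjusted p = 2.47e-23), and TCRBV01-01 at 4.68% ± 0.48 and 5.67% ± 0.42 (0.28 ± 0.02, adjusted p = 2.11e-17). They were higher in 27 and 26 of 27 mice. TCRBV05-01 was at 6.39% ± 0.59 of Out and 6.41% ± 0.33 of In, higher in 14 of 27 mice (0.00 ± 0.02, adjusted p = 0.89). Of all 26 V segments tested, 84.6% passed, so 4 of 5 members passing is near the background. The median of all segments was 0.07, and the lowest was TCRBV27-01 at -2.35.

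**Figure D2:**
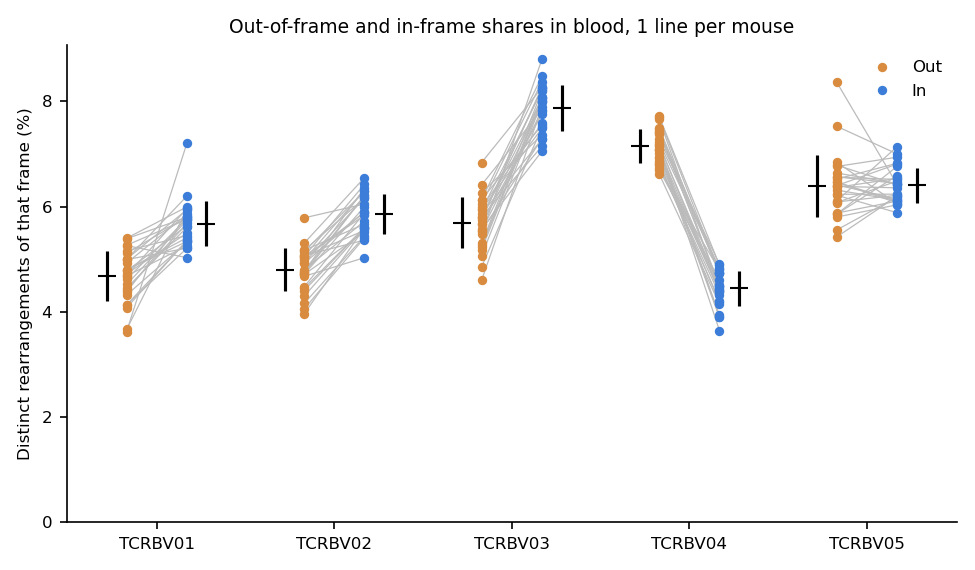
Percent of distinct Out rearrangements (orange) and of distinct In rearrangements (blue) that used each segment in blood, with a line for each of 27 mice and the mean and SD in black. The lines rise for TCRBV03-01, fall for TCRBV04-01 in every mouse, and cross for TCRBV05-01.

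Reading frame was then set beside how far the V end had been trimmed. Trimming of 0 to 2 bases does not reach the TAA codon in the V end of TCRBV04-01 printed above, and deeper trimming cuts into it. Among TCRBV04-01 rearrangements in blood with 0 to 2 bases trimmed, 196 of 7404 (2.65%) were In, 4869 were Out and 2339 were Stop, and of the Stop ones 2338 had the stop at the fifth codon. With 3 or more bases trimmed, 15663 of 24265 (64.5%) were In, and 268 of the 363 Stop ones still had a stop at the fifth codon. In the other 4 segments, 68.5% to 73.7% were In at 0 to 2 bases trimmed, so TCRBV04-01 was the only one of the 5 with few In rearrangements at short trims.

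Counted per mouse, 8.72% ± 1.02 of TCRBV04-01 rearrangements were Stop (6.68% to 10.9% over 27 mice), against 0.57% of those of all other segments. It was the highest of the 24 segments tested and was higher than the others in 27 of 27 mice (permutation test, adjusted p = 1.50e-05). The other members were at 0.30% to 0.50%, below the rest of the repertoire in 25 to 27 mice (each adjusted p = 1.50e-05). That rest included TCRBV04-01, with 2953 of the 6127 Stop rows of all libraries, and was not the 0.57% above. No test without TCRBV04-01 was made, so these lower values may reflect its presence in the reference. Of all segments tested, 87.5% passed. The 100000 sign flips per segment used for this test allow no p below 1e-05.

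The trimmed lengths followed the same split. In rearrangements of TCRBV04-01 had lost 4.60 ± 0.08 V bases on average and Out rearrangements 3.27 ± 0.18, and the share with at most 2 bases trimmed was 1.38% of In and 37.7% of Out. Among all segments tested, 85.7% differed in trimmed length and 52.4% in the share with at most 2 bases trimmed. TCRBV03-01 In rearrangements were trimmed slightly less than Out ones (3.24 and 3.52 bases, permutation adjusted p = 2.33e-05). No difference passed for TCRBV01-01 (2.22 and 2.26, adjusted p = 0.44) or TCRBV02-01 (1.52 and 1.52, adjusted p = 0.95). TCRBV05-01 lost 1.80 bases in In and 2.75 in Out rearrangements (adjusted p = 2.33e-05).

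**Figure D3:**
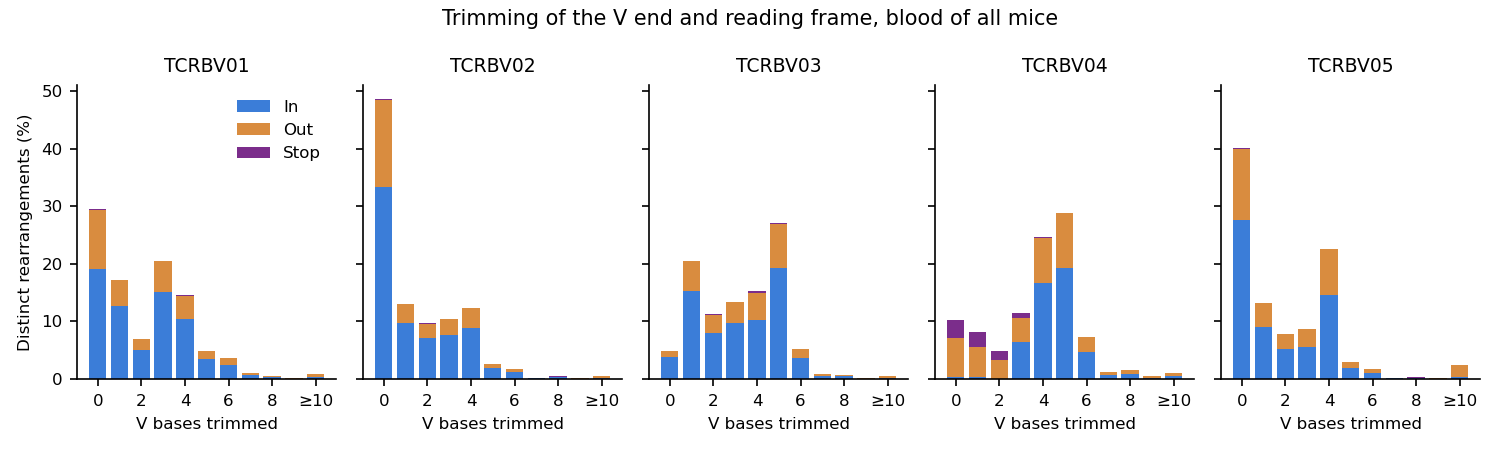
Percent of a segment's distinct rearrangements in blood (y axis) by the number of V bases trimmed (x axis), stacked by In, Out and Stop, pooled over 27 mice. TCRBV04-01 bars at 0, 1 and 2 bases hold nearly no In rearrangements, and TCRBV01-01, TCRBV02-01 and TCRBV05-01 peak at 0.

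The TCRBV05-01 difference was partly carried by a group of rows with an odd trim length. In 80 libraries, 780 TCRBV05-01 rows were listed with 17 V bases trimmed, against 0 to 6 such rows in each other member. Of these, 777 had a T run just before the CDR3 that was 1 base shorter than the usual one, and 773 (99.1%) matched another rearrangement of the same library once that T was put back. They were scored Out in 686 cases, 5.49% of all TCRBV05-01 Out rows, and no row had more than 3 templates. The pair below shows the largest partner with its short form, 2206 and 2 templates in the same tumor, with the T run in capitals.
common form: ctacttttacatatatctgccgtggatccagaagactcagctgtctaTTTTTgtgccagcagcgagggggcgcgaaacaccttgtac
short form: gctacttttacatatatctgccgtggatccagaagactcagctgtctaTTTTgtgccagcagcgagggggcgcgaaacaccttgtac

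With the rows trimmed by 17 bases left out, TCRBV05-01 lost 1.75 ± 0.10 bases in In and 2.02 ± 0.15 in Out rearrangements. Its In against Out log2 difference became 0.07 (adjusted p = 0.00105, edgeR), so the lack of a call above rests on those rows. That value is still level with the median of all segments in the main fit (0.07), where 84.6% of segments passed. The source of the short form was not tested.

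J use divided the 5 segments, with TCRBV01-01 and TCRBV02-01 joined less often to TCRBJ02 and the others more often. In blood, 63.1% to 63.7% of the In rearrangements of the other segments were joined to the TCRBJ02 cluster. TCRBV01-01 stood at 59.5% ± 2.5, a difference of -4.15 percentage points, and was lower in 25 of 27 mice. TCRBV02-01 stood at 60.3% ± 3.1 (-3.29 points, lower in 24 of 27 mice). The remaining members were above the others. TCRBV04-01 was highest at 69.3% ± 2.0 (6.19 points, 27 of 27 mice), then TCRBV05-01 at 66.6% ± 1.9 (3.38 points, 27 of 27) and TCRBV03-01 at 64.8% ± 1.7 (1.53 points, 21 of 27). All 5 passed by permutation (adjusted p = 1.69e-05 to 0.00024), as did 90.9% of the 22 segments tested, which ran from -8.83 points for TCRBV26-01 to 12.3 points for TCRBV30-01. Among Out rearrangements, TCRBV03-01 reversed to -3.76 points (permutation adjusted p = 4.18e-05), and the signs of the other 4 were kept.

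Single J segments showed where In and Out joins parted. Of the 60 pairs of a member with a J segment, 29 differed between In and Out rearrangements (16 higher and 13 lower among In), against 41.3% of all 252 pairs tested. TCRBV03-01 was joined to TCRBJ01-06 in 1.14% ± 0.41 of In and 3.65% ± 1.62 of Out rearrangements, lower among In in 26 of 27 mice. This was the lowest In share of TCRBJ01-06 among 21 segments, by less than the SD between mice. TCRBV15-01 was alike, at 1.22% ± 0.73 of In and 4.48% ± 1.66 of Out (lower in 26 of 27 mice), and TCRBV16-01 was at 1.32% ± 0.50 of In. TCRBV05-01 was joined to TCRBJ02-07 in 19.5% ± 1.9 of In and 26.8% ± 4.7 of Out rearrangements, and to TCRBJ02-05 in 14.3% ± 1.8 and 10.2% ± 1.6. It was joined to TCRBJ01-01 in 11.4% ± 1.0 of In and 6.86% ± 1.52 of Out (each of these 4 pairs, adjusted p = 7.0e-05 by permutation). TCRBV04-01 had the highest In share of TCRBJ02-04 of the 21 segments, 10.5% ± 1.5 against 8.26% ± 1.60 of its Out rearrangements (adjusted p = 0.00015).

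CDR3 length differed among the segments by less than 1 amino acid and with little spread between mice. TCRBV05-01 had the longest CDR3s of all 22 segments tested, with a mean of 14.50 ± 0.05 amino acids, 0.64 above the rest. TCRBV02-01, which has the same V end, followed at 14.44 ± 0.06 (0.58 above), and TCRBV01-01 at 14.17 ± 0.08 (0.29 above). TCRBV04-01 was shorter than the rest at 13.72 ± 0.06 (-0.19). These 4 had 1 sign in 27 of 27 mice and passed (permutation adjusted p = 1.47e-05), as did 90.9% of segments. TCRBV03-01 was at 13.90 ± 0.05, and its difference of 0.01 did not pass (adjusted p = 0.49). Among Out rearrangements TCRBV04-01 reversed to 0.17 above the rest (permutation adjusted p = 2.09e-05).

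**Figure D4:**
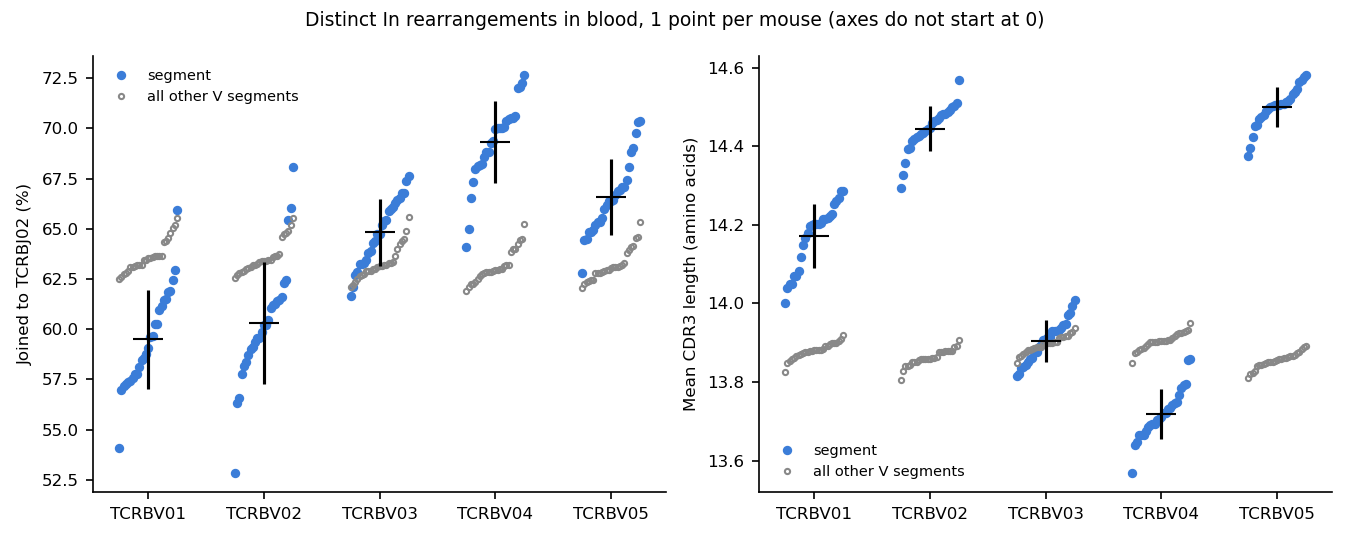
Percent of distinct In rearrangements joined to TCRBJ02 (left) and mean CDR3 length in amino acids (right) in blood for each segment (filled, sorted by value) and for all other V segments (open), 1 point per mouse, with mean and SD over 27 mice in black. The axes do not start at 0, and TCRBV04-01 sits above the open points on the left and below them on the right.

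Templates per rearrangement, a measure of clone size in blood, varied little. The log2 ratio of template share to rearrangement share was 0.09 ± 0.11 (SD between mice) for TCRBV02-01 and was positive in 23 of 27 mice (permutation adjusted p = 0.00073). For TCRBV03-01 it was -0.04 ± 0.07, negative in 19 of 27 mice (adjusted p = 0.040). TCRBV01-01, TCRBV04-01 and TCRBV05-01 did not pass (adjusted p = 0.13, 0.78 and 0.051), and 36.4% of the 22 segments did. The TCRBV03-01 value was 0.00047 when only the first blood library of each mouse was used (adjusted p = 0.97).

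Tumor and day 7 blood of the same mice were compared next, to ask which segments the T cells in tumors used. The clearest difference among the members was TCRBV05-01 above and TCRBV01-01, TCRBV02-01 and TCRBV04-01 below their blood levels when distinct rearrangements were counted. By templates, values in single tumors were far more spread. TCRBV05-01 took 3.58%, 12.03%, 7.52%, 20.6% and 4.99% of host templates in the tumors of control mice 1 to 5. It took 9.82%, 5.29%, 6.09%, 20.5% and 6.56% in those of the 1e9 arm, and 4.56%, 4.32%, 13.3%, 3.79% and 11.996% in those of the 2.5e8 arm. Day 7 blood lay between 4.96% and 7.78%, and tumor was above blood in 10 of 14 mice, including all 5 of the 1e9 arm. TCRBV01-01 took 1.78% to 2.92% in control tumors, 0.579% to 3.33% in tumors of the 2.5e8 arm and 1.16% to 12.6% in those of the 1e9 arm, against 3.32% to 5.92% in day 7 blood. It was lower in the tumor in 13 of 14 mice.

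Of the 24 segments tested by templates, 50% passed, 11 of them lower in the tumor, and 2 members were among them. The median of all segments was itself at -0.59 on the log2 scale, so values are given with their distance from it. TCRBV01-01 was at -1.04 ± 0.27 (SE, adjusted p = 0.0053), -0.44 from the median, and was at -1.20 to -0.90 when any mouse was left out. TCRBV03-01 was at -0.58 ± 0.23 (adjusted p = 0.037), which is the median, and its sign turned under the TMM (0.08) and DESeq2 (0.03) scalings. Its call was lost when any of 7 of the 14 mice was left out (control mice 2, 3, 4 and 5, 1e9-dose mice 4 and 5, and 2.5e8-dose mouse 3, -0.66 to -0.48). TCRBV02-01 (-0.53, adjusted p = 0.067, but 0.13 under TMM and 0.08 under DESeq2), TCRBV04-01 (-0.63, adjusted p = 0.072, but 0.03 under TMM) and TCRBV05-01 (0.40 ± 0.21, adjusted p = 0.10) did not pass. TCRBV05-01 lay 0.99 above the median and passed under TMM (1.06, adjusted p = 0.00048) and DESeq2 (1.02, adjusted p = 5.29e-06), under which TCRBV01-01 did not (-0.37 and -0.43, adjusted p = 0.48 and 0.29).

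Counted as distinct rearrangements, where the median of all segments was -0.04 and 41.7% of segments passed, 4 of 5 members did. The highest of all segments on this count was TCRBV12-01, the segment of the OT-1 rearrangement (0.60, adjusted p = 2.66e-22, edgeR). TCRBV02-01 was at -0.37 ± 0.06 (adjusted p = 6.02e-08), TCRBV04-01 at -0.32 ± 0.07 (adjusted p = 2.43e-05), TCRBV01-01 at -0.16 ± 0.06 (adjusted p = 0.022) and TCRBV05-01 at 0.17 ± 0.05 (adjusted p = 0.0056). TCRBV03-01 was at -0.08 (adjusted p = 0.23). Within arms, counted by templates, only the 2.5e8 arm gave calls. There TCRBV01-01 (-1.64 ± 0.45, adjusted p = 0.013) and TCRBV02-01 (-1.16 ± 0.37, adjusted p = 0.022) were among the 41.7% of segments that passed, with a median of all segments of -0.74, while 0% passed in each of the other arms (5 unadjusted with mRBC-CTRL and 1 at 1e9). By distinct rearrangements, TCRBV03-01 was higher in the tumor at 2.5e8 (0.19 ± 0.08, adjusted p = 0.047, 50% of segments passing) and lower with mRBC-CTRL (-0.17 ± 0.06, adjusted p = 0.017, 33.3% passing). That difference between arms passed, at 0.36 ± 0.10 (adjusted p = 0.019), where 4.17% of segments did. By templates it was 1.14 ± 0.52 (adjusted p = 0.30). The lymphoma CDR3 was at most 0.0372% of In templates in blood and up to 79.4% in tumors, and its part in these differences was not tested. The OT-1 CDR3 took up to 85.8% in tumors. Only rearrangements with exactly these CDR3s were left out, and the part of OT-1 was not tested either.

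Between arms, no member differed in the tumor. The share of TCRBV02-01 was 2.93% to 4.04% in control tumors and 7.03%, 8.89%, 14.2%, 7.57% and 2.84% in those of mice 1 to 5 of the 1e9 arm. Only the last of these fell within or below the control range. The log2 difference of 1.23 ± 0.55 had an unadjusted p of 0.037 and did not pass (adjusted p = 0.23, edgeR). No segment of the 24 did (0%), with 5 below 0.05 unadjusted and 5 called by DESeq2. A single clone made up 480 of the 573 TCRBV02-01 templates of mouse 3, 143 of 209 in mouse 1 and 169 of 321 in mouse 4, and the distinct count showed a difference of -0.01 (adjusted p = 0.97). TCRBV03-01 at 2.5e8 was 2.88% to 10.7% against 2.00% to 4.48% in controls, at 0.95 ± 0.52 (adjusted p = 0.33), where 4.17% of segments passed. In simulated data of this size, the fit recovered 3% of 2-fold and 29% of 4-fold changes between tumor arms, so differences of this order were not detectable here.

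In day 7 blood no member differed between arms either. At 1e9 against mRBC-CTRL, 8% of the 25 segments tested passed and the members ran from -0.26 (TCRBV03-01) to 0.47 ± 0.28 (TCRBV04-01, adjusted p = 0.36). TCRBV04-01 took 3.37%, 9.66%, 8.92%, 3.66% and 6.22% in the 5 mice of that arm and 3.91% to 5.61% in 4 control mice. The 6.22% came from a library of only 482 host templates. Single clones held 97 of the 154 TCRBV04-01 templates of mouse 2 and 274 of the 530 of mouse 3. At 2.5e8, 0% passed in edgeR (3 unadjusted), and the members ran from -0.17 to -0.07 beside a median of -0.11 over all segments.

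From day 0 to day 7 in the blood, TCRBV03-01 and TCRBV01-01 fell. TCRBV03-01 went from 8.62% ± 0.63 to 6.80% ± 0.92 over 13 mice and fell in 11 of them (-0.35 ± 0.08, adjusted p = 0.013). It also fell as distinct rearrangements (-0.16 ± 0.05, adjusted p = 0.0043). TCRBV01-01 went from 5.83% ± 0.45 to 4.93% ± 0.75 and fell in 11 of 13 mice (-0.23 ± 0.08, adjusted p = 0.034), but not as distinct rearrangements (-0.01, adjusted p = 0.91). Of 26 segments tested, 26.9% passed on either count, with a median of -0.05 by templates. The TCRBV01-01 call was lost when any of 1e9-dose mice 3 and 5 or 2.5e8-dose mice 2, 3 and 5 was left out (-0.26 to -0.19 over all mice left out), and under TMM (adjusted p = 0.0765) and DESeq2 (adjusted p = 0.0807). Neither call held with all In templates, OT-1 included, as library size or with libraries thinned to the smallest, where 0 segments were called.

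The 1e9 arm held the largest of these shifts. TCRBV03-01 took 9.21%, 9.71%, 9.28% and 8.12% on day 0 in mice 2 to 5 and 5.89%, 5.59%, 6.14% and 7.26% on day 7, lower in 4 of 4 mice (-0.58 ± 0.14, adjusted p = 0.012). TCRBV01-01 took 6.14%, 6.40%, 5.75% and 5.97% and then 5.20%, 3.90%, 4.77% and 3.32%, again lower in 4 of 4 mice (-0.48 ± 0.14, adjusted p = 0.016). TCRBV04-01 took 4.20%, 4.11%, 3.94% and 4.00% and then 9.66%, 8.92%, 3.66% and 6.22%, higher in 3 of 4 mice (0.71 ± 0.22, adjusted p = 0.019). The day 7 values of mouse 5 came from a library of only 482 host templates. Again 26.9% of the 26 segments passed within this arm. As distinct rearrangements 15.4% did, with TCRBV03-01 (-0.25, adjusted p = 0.024) among them and TCRBV04-01 (0.02, adjusted p = 0.93) and TCRBV01-01 (-0.11, adjusted p = 0.46) not. In the mRBC-CTRL and 2.5e8 arms 0% passed by templates (1 and 8 unadjusted). By distinct rearrangements TCRBV03-01 (-0.23 ± 0.07, adjusted p = 0.0094) and TCRBV05-01 (-0.18 ± 0.07, adjusted p = 0.038) passed at 2.5e8, among 26.9% of segments. The difference in change between 1e9 and mRBC-CTRL passed for 0% of segments in edgeR (2 unadjusted, members from -0.41 to 0.58, adjusted p of at least 0.34). By distinct rearrangements 7.69% passed, with no member among them. OT-1 templates grew to 48.1% or more of In templates in this arm, and their part in these values was not tested.

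Around rechallenge the 5 segments held their levels. In cured mice the 5 together took 28.2% to 30.5% of host templates on day 65 and 27.4% to 30.7% on day 73, and the members changed by -0.06 to 0.04 on the log2 scale (adjusted p of at least 0.64). Around the EL4 injection they took 29.0% to 32.7% before and 29.5% to 31.1% after, with changes of -0.08 to 0.02 (adjusted p of 0.99). In these comparisons 0% of 26 segments passed in edgeR (3 and 1 unadjusted), and the test recovered 89% of 2-fold changes in simulated data. In naive mice TCRBV01-01 was at 5.24% to 6.65% on day 65 and 4.69% to 5.96% on day 73, and was lower in 5 of 5 mice (-0.20 ± 0.08). That did not pass (adjusted p = 0.095), where 3.85% of segments did. The change in cured against naive mice was 0.24 ± 0.11 for TCRBV01-01 (adjusted p = 0.29), with 0% passing (4 unadjusted) by templates and 7.69%, no member among them, by distinct rearrangements. Between cured and naive mice no member passed on day 65 (-0.13 to 0.02) or on day 73 (-0.17 to 0.12), with 0% of segments passing at each draw (3 unadjusted at each).

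Clones were then followed one by one. An In rearrangement with at least 5 templates over tumor and day 7 blood of a mouse was tested between them by Fisher's exact test within that mouse. Of 683 such clones of the 5 segments in 14 mice, 217 were higher in the tumor (31.8%, against 30.5% of all clones tested), and 19 were lower (background 3.55%). With all In templates as denominator, OT-1 and lymphoma included, 73 were higher. By host templates the count was 24 of 120 for TCRBV01-01, 52 of 131 for TCRBV02-01, 55 of 179 for TCRBV03-01, 25 of 72 for TCRBV04-01 and 61 of 181 for TCRBV05-01. TCRBV01-01 was the member with the smallest share, and no test was made between segments. Such a test compares 2 libraries of a mouse, and its p covers counting error only. The filter counted both libraries together, so a clone could enter through its tumor templates alone. How many clones were higher or lower therefore depends on the filter, and the split is not a result about the members. The same filter was used for the draws of cured mice below.

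The clones with the most templates were in tumors. For TCRBV05-01, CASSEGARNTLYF held 2206 templates in the tumor of control mouse 4 (14.4% of host templates) and 147 in its blood, where it was also the largest TCRBV05-01 clone of any blood library. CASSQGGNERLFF held 738 (17.4%) in 1e9-dose mouse 4 and 107 in its blood. For TCRBV04-01, a clone joined to TCRBJ02-07 held 2378 templates (10.1%) in the tumor of control mouse 3 against 28 in blood, and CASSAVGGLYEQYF held 355 (8.79%) in that of 1e9-dose mouse 3 against 274 (4.61%) in blood.

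By templates, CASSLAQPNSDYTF was the largest TCRBV03-01 clone of both tissues, with 683 (4.95%) in the tumor of 2.5e8-dose mouse 1 and 45 in its blood. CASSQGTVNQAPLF was so for TCRBV02-01, with 480 (11.9%) and 216 templates in 1e9-dose mouse 3. The TCRBV01-01 clone with the most templates, joined to TCRBJ02-07, had 108 templates (0.914%) in the tumor of control mouse 5 and 2 in blood. By share the largest of TCRBV01-01 was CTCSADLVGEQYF, with 65 templates (7.81%) in the shallow tumor library of 1e9-dose mouse 2 and 2 in blood.

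**Figure D5:**
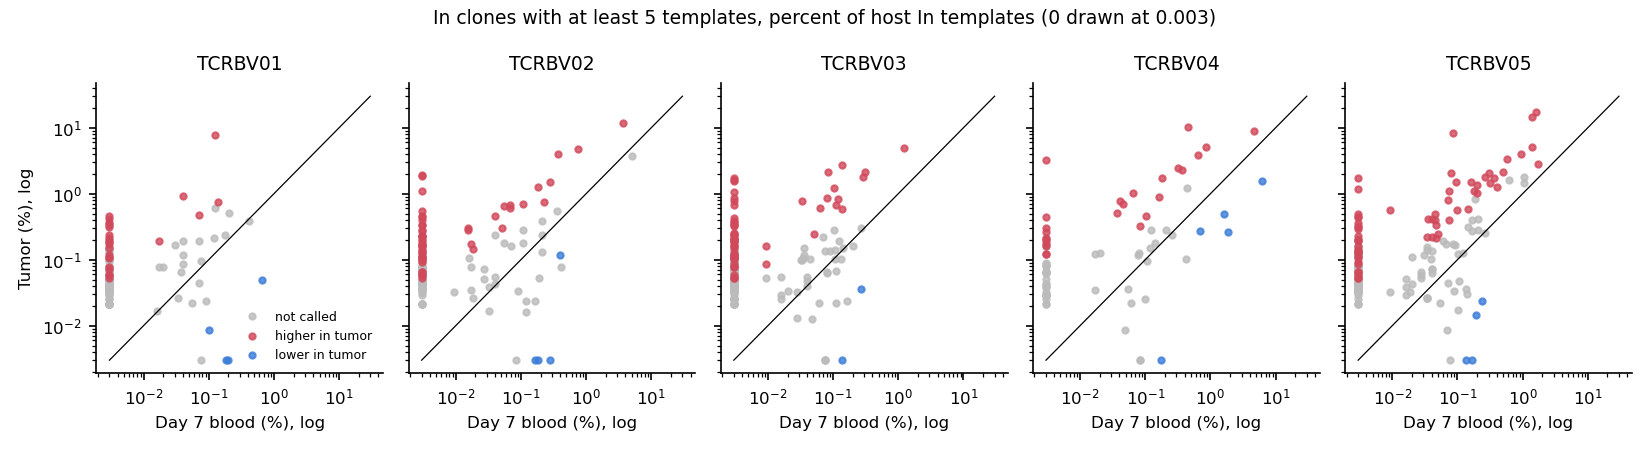
Share of host In templates (percent, log axes) in the tumor against day 7 blood for each In clone with at least 5 templates, by segment, pooled over 14 mice, with clones at 0 drawn at 0.003 and the line of equal share. Red clones were higher in the tumor by Fisher's exact test (217 over the 5 segments, or 73 with all In templates as denominator), blue ones lower (19) and grey ones not called.

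Clones called higher in the tumors of 2 mice were listed next. The same rearrangement was higher in the tumor of 2 mice in 2 cases. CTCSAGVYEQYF of TCRBV01-01 had 96 templates in the tumor of control mouse 3 and 46 in that of 2.5e8-dose mouse 1, and none in their blood. The other, of TCRBV04-01, had 113 and 17 templates in the tumors of 2.5e8-dose mice 3 and 2. Counted as CDR3s with the same segment, 10 were higher in 2 tumors, 5 of them of TCRBV02-01. No test of sharing was made. The same counts over all V segments are not given here, so these cannot be called few or many.

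Part of the tumor repertoire was also in the blood. The median share of a segment's tumor templates whose rearrangement was present in day 7 blood of the same mouse was 68.0% for TCRBV05-01, 49.4% for TCRBV04-01, 33.1% for TCRBV02-01, 15.7% for TCRBV01-01 and 12.3% for TCRBV03-01. Over distinct rearrangements the medians were only 3.85% to 7.31%. The ranges over 14 mice were wide, 13.3% to 89.4% for TCRBV05-01 and 0% to 80.9% for TCRBV03-01, and overlapped between the members.

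In cured mice, 9 of 52 clones tested were higher on day 73 than on day 65 (background 26.4%) and 1 was lower (background 1.04%). The largest was a TCRBV05-01 clone joined to TCRBJ02-07, with 55 templates in cured mouse 2 on day 73 and 0 on day 65 (Fisher's exact test, adjusted p = 1.09e-25). Around the EL4 injection, 11 of 123 were higher after it (background 8.36%) and 20 lower (background 14.9%). Examples that went from 0 to 34, 30 and 24 templates were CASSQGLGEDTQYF of TCRBV05-01, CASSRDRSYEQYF of TCRBV03-01 and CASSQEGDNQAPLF of TCRBV02-01, each in a different mouse. The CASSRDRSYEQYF rearrangement had already been present in its mouse on day 73, with 2 templates. Over all 4 draws of a mouse, 1.05% to 1.17% of the rearrangements of each member were seen in at least 2 draws, and 3 to 8 rearrangements of each in all 4.

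Between mice, CDR3s were shared at 11.8% (TCRBV04-01) to 15.04% (TCRBV03-01) of those of each member found in 2 or more mice. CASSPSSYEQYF of TCRBV03-01 was found in 25 of 27 mice, in 13 nucleotide forms and 322 templates, which was more mice than for any other CDR3 of the 5 segments. The widest CDR3 of TCRBV05-01, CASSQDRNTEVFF, was in 18 mice. That of TCRBV04-01, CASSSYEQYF, was in 17, and that of TCRBV02-01, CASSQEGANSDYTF, in 14. The widest of TCRBV01-01 was also in 14. Libraries differed in depth, and its part in these counts was not tested.

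Rearrangements that encode no β chain were also found at high counts in tumors. A TCRBV05-01 Out rearrangement held 1550 templates in the tumor of 2.5e8-dose mouse 2 and 232 in its blood. In control mouse 3, a TCRBV02-01 Out rearrangement held 1442 templates and a TCRBV04-01 Out rearrangement 1384, against 45 and 48 in blood. In the cured mice, a TCRBV04-01 Stop rearrangement of mouse 1 went through 6, 13 and 9 templates at the first 3 draws to 113 at the last, after EL4. Bulk DNA does not show which In rearrangement shares a cell with them.

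Finally, 239 rows paired a member segment with the OT-1 or the lymphoma CDR3, both of which belong to other V segments. The OT-1 CDR3 was listed with TCRBV03-01 in 88 rows (127 templates), with TCRBV04-01 in 63 (76), with TCRBV02-01 in 25 (29) and with TCRBV05-01 in 6 (6), and with TCRBV01-01 in 0. Every one had the CDR3 bases of OT-1 itself, and none came from a library without the OT-1 CDR3. The OT-1 rearrangement was itself present in 78 of the 81 libraries, so few libraries could have shown otherwise. The lymphoma CDR3 was listed with TCRBV04-01 in 23 rows, TCRBV05-01 in 16, TCRBV03-01 in 15 and TCRBV02-01 in 3. The lines below give the OT-1 rearrangement and the pair of TCRBV04-01 forms seen most, with the CDR3 in capitals.
OT-1, TCRBV12-01: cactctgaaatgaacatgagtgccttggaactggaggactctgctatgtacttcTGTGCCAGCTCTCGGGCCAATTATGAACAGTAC
TCRBV04-01, 41 templates: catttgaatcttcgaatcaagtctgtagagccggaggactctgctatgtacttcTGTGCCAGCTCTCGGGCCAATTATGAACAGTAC
TCRBV04-01, 33 templates: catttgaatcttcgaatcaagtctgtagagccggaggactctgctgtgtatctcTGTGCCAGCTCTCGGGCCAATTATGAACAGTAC

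The first TCRBV04-01 form shares its last 55 bases with the OT-1 rearrangement, and the second its last 35. Over the rows with the OT-1 CDR3 the shared stretch ran from 33 to 58 bases, and it was not measured for the lymphoma CDR3. Rows with either CDR3 were left out of every share of host templates.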

How the data were processed

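TCRβ rearrangements had been sequenced from genomic DNA by the immunoSEQ assay (per the study's methods, analyzer 3.0), in a multiplex PCR with bias control. Whole blood or a part of each tumor suspension was used. The deposited values are whole-number template counts per 87-base rearrangement, and the deposited frequency is that count as a fraction of the library, which was so in all 81 libraries. The genome build is not given in the sources used here, so no coordinates are printed. A sample labelled day 73 of cured mouse 1 in words was assigned to cured mouse 2 by its animal code.

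Templates were summed per V segment over In rearrangements without the OT-1 and lymphoma CDR3s (82 rows lacked a resolved V segment). Sums were tested with edgeR 4.0.16 (quasi-likelihood, common dispersion, host templates as library size, mouse as a block where tissues or days of a mouse were compared, segments present in at least 50% of libraries, Benjamini-Hochberg adjustment over all segments, called below 0.05). DESeq2 1.42.0, TMM, distinct rearrangements, thinning and other settings were alternatives. Per-mouse measures used 2-sided sign-flip permutation tests (1e+05 resamples) and clones used 2-sided Fisher's exact tests, in Python 3.11.15 with scipy 1.17.1. Scripts were tested on simulated data. Each mouse is a separate animal, and the tests of V segments used mice as replicates. The p-values of clones compare 2 libraries of a mouse and cover counting error only. PCR was done without molecular identifiers, and any error from it is not covered by the p-values of clones. Members, lists and tests were chosen with earlier results of these data known. Stop shares, trimmed lengths, V with J pairs and the 17-base trim were added after values were seen. Named clones were the largest per segment by templates, or those called in 2 mice, and the other clones named were chosen after their values were seen.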

Additional observations from a re-analysis of the deposited data

Results flagged for a closer look

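Of 75 groups of 4 to 7 libraries, 3 held a library far from the rest, where chance alone gives about 1 in 20. TCRBV01-01 was at 1.78% in the tumor of control mouse 1, with 2.80% to 2.92% in the other 4 control tumors. TCRBV01-01 was at 12.6% in the tumor of 1e9-dose mouse 2, with 1.16% to 3.25% in the other 4. That library held 105 TCRBV01-01 templates of 832 host templates, and 65 of them were the clone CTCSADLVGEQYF. TCRBV04-01 was at 16.4% in the tumor of control mouse 3, with 1.13% to 3.12% in the other 4, and 2378 of its 3869 templates there were a single clone.

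Outside the main measurement, 780 TCRBV05-01 rows had 17 V bases trimmed and nearly all matched a larger rearrangement of the same library with 1 more T. A further 239 rows joined a member segment to the OT-1 or lymphoma CDR3. The largest rearrangement with a stop codon among the members was of TCRBV05-01, with 1881 templates in the tumor of 2.5e8-dose mouse 1, 130 in its day 7 blood and 5 in its day 0 blood.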

How the results depend on the processing

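Shares are relative, so the scaling decides how many V segments pass, and libraries of 482 to 832 host templates limit the 1e9 arm. Of the counts under alternatives, 93 stayed within 1.5 times and 43 moved. Of single-segment values, 575 stayed on their side of the threshold, 25 passed anew, 22 were lost and 13 reversed. A value counted as reversed only where it passed before or after the change of setting. Values that passed in neither could therefore change sign among the 575. TCRBV02-01 and TCRBV04-01 did so under TMM in tumor against day 7 blood. The causes were not tested.

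Tumor against day 7 blood (12 segments called) gave 2 under TMM, 3 under DESeq2, 23 with all In templates as library size, 0 thinned, 6 without the replicate block and 5 by the exact test of the share, and TCRBV03-01 reversed to 0.079 (TMM) and 0.028 (DESeq2) and TCRBV05-01 to -0.92 (all In). In the tumor, 1e9 against mRBC-CTRL (0) gave 5 under DESeq2, and 2.5e8 (1) gave 5 under DESeq2, 2 with all In templates and 0 under TMM, distinct rearrangements, the replicate block and the exact test. Day 7 blood at 1e9 (2) gave 23 with all In templates, 1 by distinct rearrangements and thinned, and 0 under TMM, without the filter, with the replicate block and by the exact test, with TCRBV02-01 at -1.17 and TCRBV04-01 at -0.94 (all In). Day 7 against day 0 (7) gave 4 under TMM and 0 with all In templates and thinned. Its difference between 1e9 and mRBC-CTRL (0) gave 21 with all In templates, and 2 by distinct rearrangements and without the replicate block, with TCRBV02-01 at -0.95 (all In).

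Cured day 73 against 65 (0) gave 23 with all In templates and 1 thinned, with TCRBV01-01 at -0.35 and TCRBV05-01 at -0.36 (all In). The naive change (1) gave 5 with all In templates and 0 under DESeq2 and the exact test. The cured against naive change (0) gave 18 with all In templates and 2 by distinct rearrangements, with TCRBV02-01 at -0.44 and TCRBV05-01 at -0.45 (all In). Cured against naive on day 65 (0) gave 2 with all In templates, and 1 without the filter and by the exact test, and on day 73 (0) 12 with all In templates and 1 by distinct rearrangements. Among Out rearrangements TCRBV03-01 had a TCRBJ02 difference of -3.76 and TCRBV04-01 a length difference of 0.17. Templates per rearrangement (8 segments) gave 2 in the rechallenge experiment, and TCRBV03-01 was at 0.00047 in the first libraries. Clones higher in the tumor (217) numbered 73 with all In templates as denominator. Clones higher on day 73 (9) numbered 3 at 10 or more templates and 4 at adjusted p under 0.01, and after EL4 (11) 4 at that threshold.

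With each mouse left out in turn, the counts ran from 9 to 14 for tumor against blood, 0 to 0 and 0 to 3 for the tumor arms (1e9 and 2.5e8), 0 to 2 and 0 to 0 for day 7 blood, 5 to 10 for day 7 against day 0, and 0 to 4 for its difference between arms (4 without 1e9-dose mouse 4). They ran from 0 to 2 and 0 to 0 for the cured changes (2 without cured mouse 2), 1 to 2 for the naive change, 0 to 1 for cured against naive change and 0 to 0 for both draws, and for clones from 166 to 217, 6 to 9 and 8 to 11. Mouse numbers shared between arms gave correlations of deviations from -0.46 to 0.36 and were treated as names only. The block by mouse pairs samples of the same animal.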
